A study of Arabidopsis thaliana with 10 samples.

Results

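Genes that stood highest in seedlings of the Arabidopsis thaliana triple mutant atbmi1abc were collected by a fixed rule. A nuclear locus was taken when its mean over the 2 libraries labelled atbmi1abc was at least 5 FPKM (sequenced fragments scaled by transcript length and library size) and at least 4 times the largest mean of the other 4 genotypes, each held at 0.5 FPKM or more. These limits were passed by 224 loci, of which the rule leaves out 7 by name, and the other 217 of 26619 nuclear loci (0.815%) were the members. RNA came from whole seedlings of ecotype Col-0 at 10 days after germination, with 2 libraries for each of 5 genotypes. The mutant groups were the triple mutant (labelled atbmi1abc), a double mutant described as strong (atbmi1ab_strong), and the single mutants atbmi1a and atbmi1b, each set against wild type (WT). The labels name no allele.

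The 3 AtBMI1 genes encode RING-finger subunits of Polycomb repressive complex 1, which places ubiquitin on histone H2A and helps to keep developmental genes silent. In Arabidopsis the complex is known for shutting down seed maturation genes after germination, together with Polycomb repressive complex 2 and with B3-domain repressors of the VAL family. B3-domain proteins, both the VAL repressors and the seed activators LEC2, FUS3 and ABI3, bind the RY repeat, a short motif built on the letters CATGCA, in promoters of seed genes.

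The targeted genes were read as a check of the labels. AtBMI1A averaged 12 ± 2.4 FPKM in the libraries labelled atbmi1abc, 8.54 ± 0.92 in atbmi1ab_strong and 30.1 ± 4.7 in atbmi1a, against 6.5 ± 0.58 in WT (SD, n = 2 each), so it was not low in any library labelled as its mutant. AtBMI1B averaged 3.77 ± 0.18 FPKM in atbmi1abc, 1.8 ± 0.15 in atbmi1ab_strong and 0.145 ± 0.053 in atbmi1b, against 6.10 ± 0.34 in WT. AtBMI1C averaged 3.69 ± 0.93 FPKM in atbmi1abc and 3.32 ± 0.14 in atbmi1ab_strong, against 0.0906 ± 0.0636 in WT. FPKM of a locus cannot show whether the disrupted part of the transcript was sequenced, and all directions below are those of the libraries as labelled. FPKM summed to between 792416 and 990295 per library, and the depth of the libraries relative to WT replicate 1, taken from the spacing of low FPKM values, ranged over 0.819 to 1.35.

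The promoters shown here belong to the 5 lipid-transfer protein genes among the members and to the pollen coat protein genes GRP17 and GRP19. They are shown because each holds the RY core, which was found in a larger share of member promoters than of all promoters. Each is the 250 bases before the annotated start, 5′ to 3′ on the strand of the gene, from the RefSeq genome TAIR10.1, with each match to CATGCA or to its reverse complement TGCATG in capitals. The windows are chr4:15034957-15035206 (plus strand) for AT4G30880, chr5:15225517-15225766 (plus) for AT5G38160, chr5:15227388-15227637 (plus) for AT5G38170, chr5:15229560-15229809 (plus) for AT5G38180, chr5:21194794-21195043 (plus) for AT5G52160, chr5:2384526-2384775 (minus) for GRP17 and chr5:2389250-2389499 (minus) for GRP19.
AT4G30880: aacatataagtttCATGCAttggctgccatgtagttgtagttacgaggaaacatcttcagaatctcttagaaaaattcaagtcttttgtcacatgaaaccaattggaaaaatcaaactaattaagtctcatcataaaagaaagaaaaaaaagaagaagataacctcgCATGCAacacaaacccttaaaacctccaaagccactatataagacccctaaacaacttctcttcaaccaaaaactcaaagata
AT5G38160: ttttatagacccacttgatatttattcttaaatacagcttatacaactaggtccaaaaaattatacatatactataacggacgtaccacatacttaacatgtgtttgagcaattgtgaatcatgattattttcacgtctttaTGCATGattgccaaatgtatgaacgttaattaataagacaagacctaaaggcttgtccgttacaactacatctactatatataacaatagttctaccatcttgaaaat
AT5G38170: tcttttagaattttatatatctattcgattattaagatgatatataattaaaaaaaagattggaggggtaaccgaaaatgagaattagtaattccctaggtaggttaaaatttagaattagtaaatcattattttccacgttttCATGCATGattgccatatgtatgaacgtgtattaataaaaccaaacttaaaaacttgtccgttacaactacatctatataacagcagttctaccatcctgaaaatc
AT5G38180: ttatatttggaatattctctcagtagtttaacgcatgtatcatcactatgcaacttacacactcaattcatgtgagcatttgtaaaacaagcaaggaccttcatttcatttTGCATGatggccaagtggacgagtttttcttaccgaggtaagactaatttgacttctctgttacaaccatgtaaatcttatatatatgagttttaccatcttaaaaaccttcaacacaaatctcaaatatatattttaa
AT5G52160: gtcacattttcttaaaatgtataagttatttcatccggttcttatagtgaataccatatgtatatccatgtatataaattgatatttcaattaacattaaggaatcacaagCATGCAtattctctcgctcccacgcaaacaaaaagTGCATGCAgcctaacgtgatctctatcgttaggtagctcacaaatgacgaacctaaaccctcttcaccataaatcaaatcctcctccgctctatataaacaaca
GRP17: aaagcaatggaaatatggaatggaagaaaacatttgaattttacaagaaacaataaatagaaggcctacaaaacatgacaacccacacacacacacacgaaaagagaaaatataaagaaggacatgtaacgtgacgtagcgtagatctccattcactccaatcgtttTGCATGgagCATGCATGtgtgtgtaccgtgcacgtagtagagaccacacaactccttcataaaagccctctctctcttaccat
GRP19: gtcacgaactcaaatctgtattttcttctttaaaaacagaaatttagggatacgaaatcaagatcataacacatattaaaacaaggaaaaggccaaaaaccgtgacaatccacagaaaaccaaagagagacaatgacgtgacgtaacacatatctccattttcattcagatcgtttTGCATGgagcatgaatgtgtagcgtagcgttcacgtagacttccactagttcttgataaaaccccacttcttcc

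In AT5G38170 and GRP17 overlapping matches on both strands join into the full RY repeat CATGCATG, which reads the same on both strands. In AT5G52160 overlapping matches give TGCATGCA. The first base of a match lay 83, 108, 104, 139, 102, 72 and 74 bases before the start in these 7 promoters, taking the match nearest to the start in each.

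The members ranged widely in level. Their atbmi1abc means ran from 5.01 to 1518 FPKM with a median of 16, and 23 members were at 100 FPKM or more. The ratio of the atbmi1abc mean to the largest other mean ran from 4.01 to 143.9, with a median of 6.49 and quartiles of 4.98 and 11.1. These values chose the members and are given as a description. Just inside the limit stood the lipid-transfer gene AT5G38160, the abscisic acid hydroxylase gene CYP707A2 and the root-cap NAC gene SMB, each at 4.01, and just outside stood SCPL9, AT3G09730 and AT2G42005, each at 3.99.

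The member values in the libraries labelled atbmi1abc had medians of 15.5 and 16.4 FPKM. Medians were 1.85 and 2.14 FPKM in atbmi1ab_strong, 0.917 and 0.249 in atbmi1a, 0.389 and 0.370 in atbmi1b, and 0.281 and 0.235 in WT. Members held 1.37% and 1.39% of the summed FPKM in the atbmi1abc libraries, 0.210% and 0.234% in atbmi1ab_strong, and 0.0497% and 0.0450% in WT. In these whole-seedling libraries fewer cells of a type and less RNA per cell cannot be told apart.

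**Figure D1:**
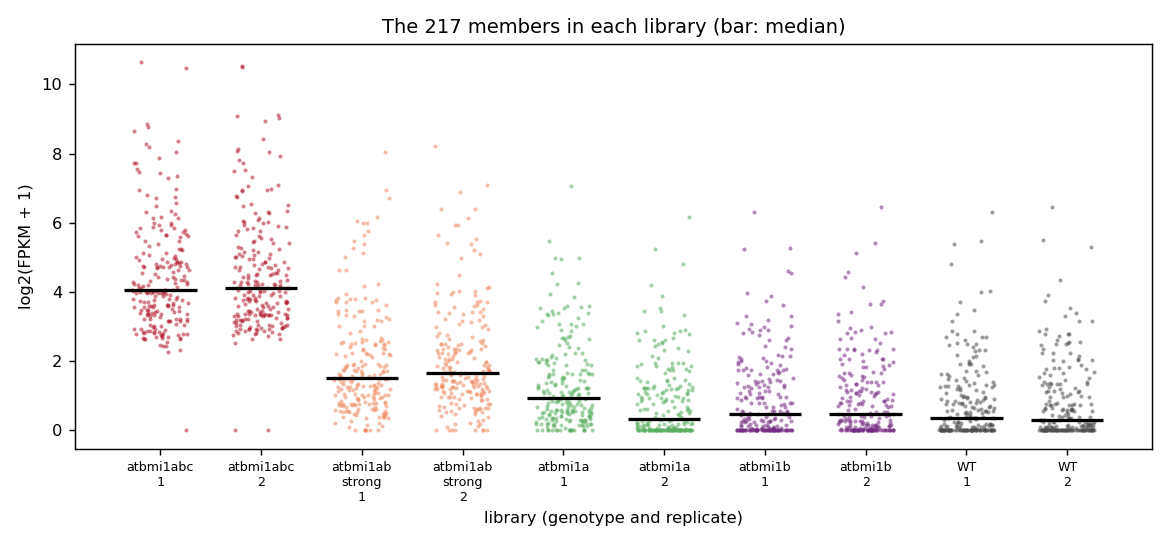
log2(FPKM + 1) of the 217 members in each of the 10 libraries, with genotype and replicate on the x axis, 1 point per member and a bar at the median. The atbmi1abc medians correspond to 15.5 and 16.4 FPKM, the atbmi1ab_strong medians to 1.85 and 2.14 FPKM, and atbmi1a replicate 1 (0.917) lies above atbmi1a replicate 2 (0.249).

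The atbmi1abc libraries were close to each other for most members: 184 of 217 lay within 1.5-fold and 14 lay more than 2-fold apart. In 214 members both atbmi1abc libraries exceeded all 8 other libraries, against 24.8% of all tested loci, a count that the rule largely fixes. The other 3 were listed at 0 in 1 atbmi1abc library. AT2G01023 had 0 and 124 FPKM there, AT2G14692 had 25.2 and 0, and AT3G43829 had 10.03 and 0. All 3 therefore entered on a single library.

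The name of a peak confined to the triple mutant held only in part. In 183 of 217 members the next highest genotype was atbmi1ab_strong, in 13 atbmi1b, in 12 atbmi1a and in 9 WT. The order of means was atbmi1abc over atbmi1ab_strong over WT in 195 members. Over the 211 members above 0 in atbmi1ab_strong the median ratio of atbmi1abc to atbmi1ab_strong was 6.99. Members listed at 0 in both libraries of a genotype numbered 6 in atbmi1ab_strong, 17 in atbmi1a, 44 in atbmi1b and 57 in WT, and 6 were listed at 0 in all 8 libraries outside atbmi1abc. The members are therefore genes at their highest in the triple mutant, most of which were also detected in the double mutant at a lower level.

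**Figure D2:**
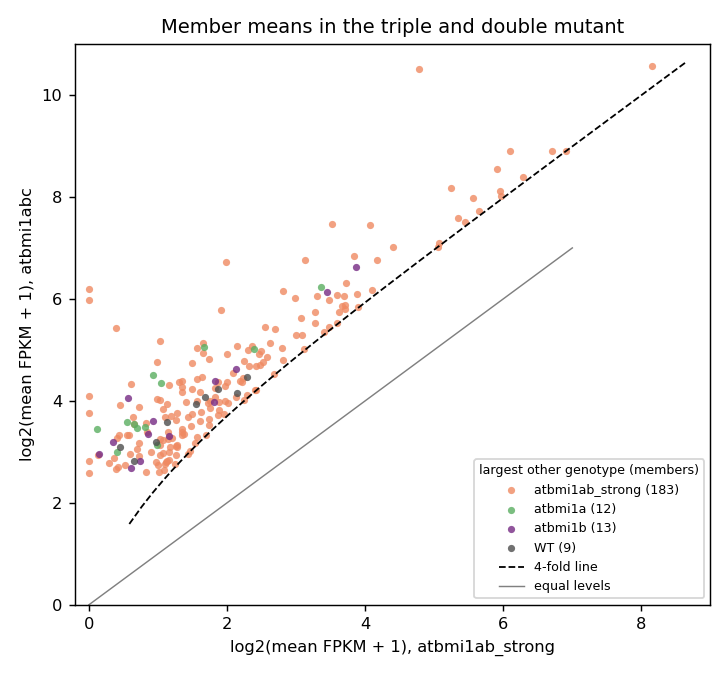
log2(mean FPKM + 1) of each member in atbmi1ab_strong (x axis) and atbmi1abc (y axis), 1 point per member, coloured by the genotype with the largest other mean. The dashed line is a 4-fold ratio and the grey line equal levels; points of the 183 members with atbmi1ab_strong as the next genotype lie on or above the dashed line, where the rule put them.

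The lipid-transfer protein genes, which encode small secreted cysteine-rich proteins of the family that also holds the seed 2S albumins, had 5 members. AT4G30880 had 1424 and 1471 FPKM in atbmi1abc, 31.4 and 21.6 in atbmi1ab_strong, 30.3 and 0.386 in atbmi1a, 0.440 and 0.198 in atbmi1b, and 0.267 and 0.269 in WT. Its atbmi1abc libraries agreed closely, and its atbmi1a libraries did not. AT5G38160 had 404 and 554 FPKM in atbmi1abc, 104 and 135 in atbmi1ab_strong, 13.4 and 0 in atbmi1a, 0 and 0.20 in atbmi1b, and 0.270 and 0.543 in WT. AT5G38170 had 15.5 and 53.2 FPKM in atbmi1abc and 2.37 and 1.92 in atbmi1ab_strong, and was listed at 0 in WT. AT5G38180 had 28.1 and 34.9 FPKM in atbmi1abc, 7.10 and 8.25 in atbmi1ab_strong, and 0.279 and 0 in WT. These 3 are direct neighbours on chromosome 5 (15225767 to 15230243, TAIR10.1, plus strand, 1 exon each) and belong to 1 family, so reads could be split between them and their single values are uncertain. AT5G52160 had 43.7 and 26.8 FPKM in atbmi1abc and 1.27 and 0.824 in atbmi1ab_strong, and was listed at 0 in both WT libraries.

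Among the other members named for their level, AT2G43535, a scorpion toxin-like knottin peptide gene, was the highest. It had 1595 and 1441 FPKM in atbmi1abc, 266 and 299 in atbmi1ab_strong, 134 and 70.8 in atbmi1a, 78.2 and 86.9 in atbmi1b, and 79.2 and 86.2 in WT, so it was well detected in every genotype. LEA7, a late embryogenesis abundant protein gene of dehydration and seed drying, had 464 and 496 FPKM in atbmi1abc, 65.5 and 70.0 in atbmi1ab_strong, 18.2 and 4.40 in atbmi1a, 2.78 and 2.40 in atbmi1b, and 0.804 and 1.5 in WT. AT2G14900, a gibberellin-regulated family gene, had 438 and 520 FPKM in atbmi1abc, 122 and 84.1 in atbmi1ab_strong, and 43.7 and 38.6 in WT. ICE1, a bHLH factor of cold response and of the stomatal lineage, had 328 and 345 FPKM in atbmi1abc, 70.7 and 83.9 in atbmi1ab_strong, and 41.1 and 44.3 in WT. AT2G14900 and ICE1 were thus well detected in WT, unlike LEA7. AT3G14452, annotated as uncharacterized, had 212 and 538 FPKM in atbmi1abc and 0 and 118 in atbmi1ab_strong, and was listed at 0 in the 6 other libraries.

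GRP17 and GRP19 encode glycine-rich oleosin-like proteins, which are known from the tapetum and the pollen coat. GRP19 had 307 and 270 FPKM in atbmi1abc, 40.4 and 33.0 in atbmi1ab_strong, 5.40 and 0 in atbmi1a, 0.296 and 0.228 in atbmi1b, and 0.612 and 0.179 in WT. GRP17 had 17.9 and 11.8 FPKM in atbmi1abc and 1.27 and 2.02 in atbmi1ab_strong, against 0 and 0.0475 in WT. The other 16 genes of a list of pollen and tapetum genes stayed low: their summed level was 8.70 to 9.51 FPKM in atbmi1abc, 4.93 to 5.12 in atbmi1ab_strong and 4.74 to 4.90 in WT, and 8 of the 16 were listed at 0 in both atbmi1abc libraries. No member came from a list of 15 endosperm genes or of 7 seed coat genes, nor from lists of 16 meristem regulators and 8 root tissue genes. Members were 0.815% of nuclear loci, so their absence from lists this short says little.

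**Figure D3:**
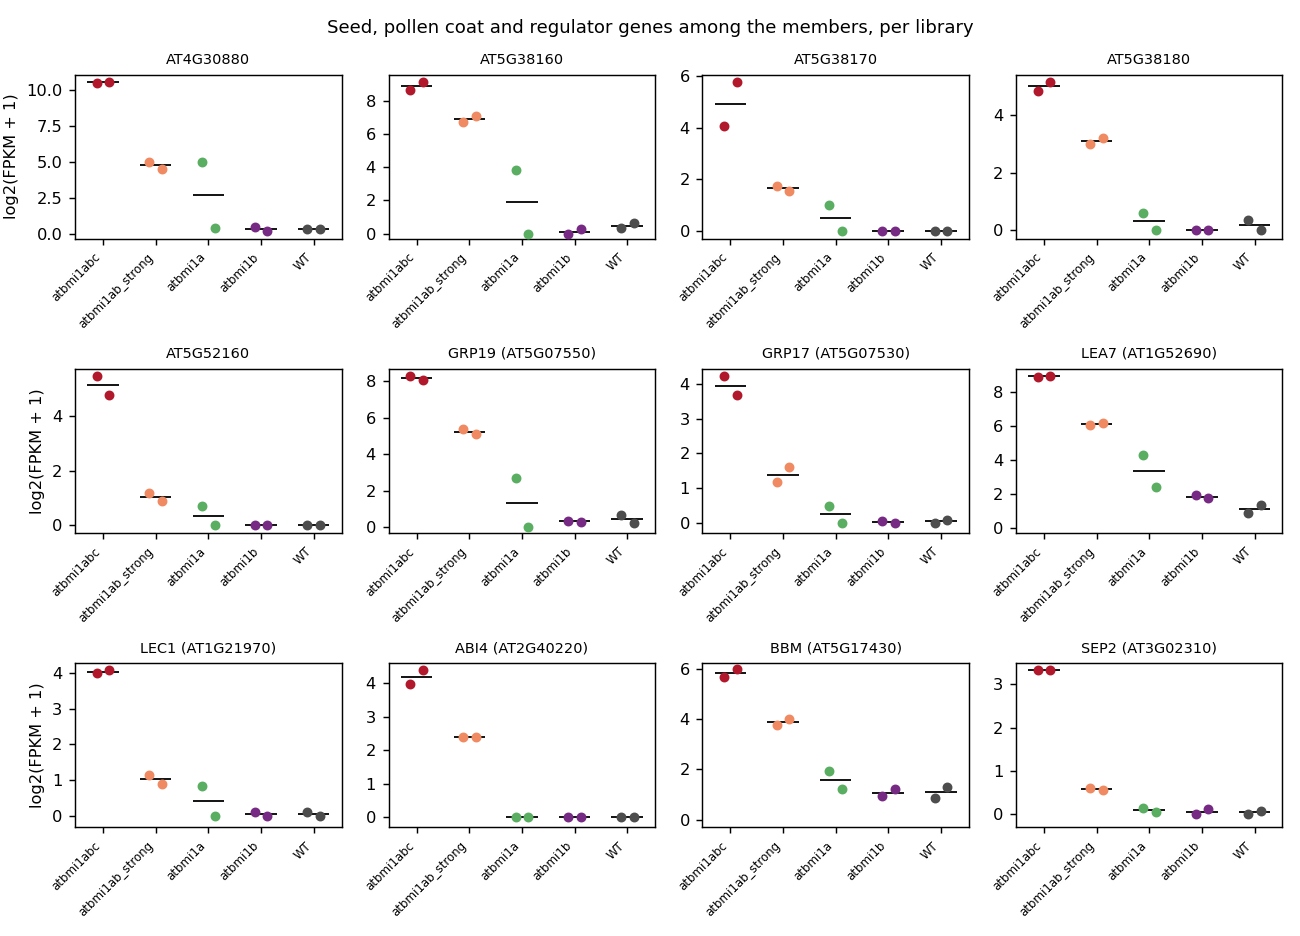
log2(FPKM + 1) per library of 12 members: the 5 lipid-transfer genes, GRP19, GRP17, LEA7, and the regulators LEC1, ABI4, BBM and SEP2. Points are libraries, bars are genotype means on that scale, and each panel has its own axis; atbmi1abc is highest in every panel, and for the lipid-transfer genes atbmi1a replicate 1 lies above replicate 2.

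By keywords in their annotation 24 of the 217 members (11.1%) were counted as transcription factors, against 4.70% of nuclear loci with an annotation. The keywords miss some: LEC1, annotated as a histone superfamily protein, and the MADS-box gene GOA, with 6.84 and 4.72 FPKM in atbmi1abc, are not among the 24. LEC1, the NF-YB subunit that drives embryo development, had 14.7 and 15.7 FPKM in atbmi1abc, 1.22 and 0.878 in atbmi1ab_strong, 0.799 and 0 in atbmi1a, 0.0802 and 0 in atbmi1b, and 0.0958 and 0 in WT. ABI4, an AP2-domain factor of abscisic acid response in seeds, had 14.9 and 20 FPKM in atbmi1abc and 4.32 and 4.30 in atbmi1ab_strong, and was listed at 0 in the 6 other libraries. BBM, an AP2-domain factor that can induce somatic embryos, had 50.5 and 62.1 FPKM in atbmi1abc, 12.8 and 15.1 in atbmi1ab_strong, and 0.833 and 1.49 in WT. ABI4 and BBM stood at 4.04 times their atbmi1ab_strong mean, close to the limit, and LEC1 at 14.5 times. SEP2, a MADS-box factor of floral organ identity, had 9.0 and 8.98 FPKM in atbmi1abc, 0.521 and 0.480 in atbmi1ab_strong, and 0 and 0.0594 in WT. The other 13 genes of a list of floral homeotic genes went the other way in summed level. They had 2.77 to 3.97 FPKM in atbmi1abc, 3.19 to 3.71 in atbmi1ab_strong and 16.1 to 22.1 in WT. SEP3 made up most of the WT sum, with a mean of 12.4 FPKM in WT and 0.258 in atbmi1abc.

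The other regulators belonged to several families. BBX10, a B-box zinc finger gene, had 56.6 and 28.1 FPKM in atbmi1abc and 0.312 and 0.323 in atbmi1ab_strong, and was listed at 0 in WT. MYB62, a MYB factor known from phosphate starvation, had 17.9 and 13.2 FPKM in atbmi1abc, 0.798 and 0.165 in atbmi1ab_strong, and 0.0812 and 0.0819 in WT. FPF1, a small protein gene that promotes flowering and not itself a transcription factor, had 13.8 and 14.5 FPKM in atbmi1abc and 0.287 and 0.447 in atbmi1ab_strong, and was listed at 0 in WT. For these 3 the double mutant stayed under 1 FPKM. MYB40 (28 and 26.3 FPKM in atbmi1abc, 1.59 and 2.14 in WT), MYB53 (17.3 and 18.7, against 0.510 and 1.54), and the DNA damage factor gene NAC044 (22.9 and 21.6, against 0.451 and 0.325) were detected in every library. LBD15, a LOB-domain gene, had 38.9 and 37.0 FPKM in atbmi1abc, 7.04 and 6.90 in atbmi1ab_strong, and 0.597 and 0.702 in WT. The B3-domain gene AT4G31615 had 29.8 and 31.9 FPKM in atbmi1abc, 4.51 and 3.40 in atbmi1ab_strong, and 0.567 and 0.171 in WT. BLH8, a BEL1-like homeodomain gene, had 9.56 and 11.2 FPKM in atbmi1abc, against 0.725 and 0.731 in WT.

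Those other genes of the embryo regulator list that passed the filter were mostly raised in the double mutant already. Of 19 listed genes in the files 3 were members, and of the 16 others 10 were tested. Among these, L1L, FUS3, ABI3, ABI5 and BZIP67 averaged under 1 FPKM in WT and passed the filter through the mutants. LEC2 was not tested, with 0.335 FPKM in atbmi1abc and 0.0326 in atbmi1ab_strong. HSFA9, DRNL, MYB115 and MYB118 were also under 1 FPKM in both, and DRN had 1.86 and 1.43. In atbmi1ab_strong against WT 9 of the 10 tested genes rose and 1 fell (limma, Benjamini-Hochberg adjusted p under 0.05). Of all tested loci 31.8% rose and 32.6% fell. FUS3 averaged 174 FPKM in atbmi1abc and 55.6 in atbmi1ab_strong, and ABI3 averaged 106 FPKM in atbmi1abc and 50.9 in atbmi1ab_strong, ratios under the limit of the rule. Of 20 seed storage and oil body genes none was a member, and 17 of 18 tested rose in atbmi1ab_strong against WT and 1 fell. Of those tested, SESA5, CLO1, PER1, EM1, EM6 and ECP63 averaged under 1 FPKM in WT and passed the filter through the mutants. For these genes a fall could hardly be called. The list leaves out storage protein genes that are among the 7 loci which passed the limits and were left out by name. The summed level of this list was 74571 to 83768 FPKM in atbmi1abc and 89949 to 107277 in atbmi1ab_strong.

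Several families of enzymes and wall proteins were present among the other members, grouped by keyword after the members had been seen. Isoprenoid synthesis genes had 9 members (4.17% of the members, against 0.191% of nuclear loci). The terpenoid cyclase genes AT1G31950 and AT1G33750 had 79.1 and 76.8, and 69.2 and 64.4 FPKM in atbmi1abc, against 4.66 and 5.11, and 4.56 and 4.68 in WT. GGPS3, a geranylgeranyl pyrophosphate synthase gene, had 28 and 28.3 FPKM in atbmi1abc and 2.96 and 3.05 in WT, and AT5G44630, another terpenoid cyclase gene, had 11.2 and 12.6 FPKM in atbmi1abc, 0.518 and 0.586 in atbmi1ab_strong, and was listed at 0 in WT. The group thus held genes detected in WT as well as a gene at 0 there.

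X8-domain and glycosyl hydrolase family 17 genes, whose products bind or cut beta-1,3-glucans of the cell wall, had 6 members (2.78%, against 0.241% of nuclear loci). Of these, AT5G63230 had 13.8 and 18.3 FPKM in atbmi1abc and was listed at 0 in all 8 others, AT5G63240 had 28.2 and 31.2 in atbmi1abc and 2.02 and 2.27 in atbmi1ab_strong, and AT5G63250 had 9.71 and 8.39 in atbmi1abc and 0.361 and 0.563 in atbmi1ab_strong. They are neighbours on chromosome 5 (25357360 to 25360695, minus strand), and reads could be split between them as well. Pectin-modifying enzymes and their inhibitors had 7 members (3.24%, against 0.879%), with atbmi1abc means from 6.01 to 48.2 FPKM. GDSL lipase genes had 4 members, led by AT5G03820 with 155 and 225 FPKM in atbmi1abc, 37.6 and 41.8 in atbmi1ab_strong, and 0 and 0.0815 in WT. AT1G06990, another of the 4, had 19.0 and 19.3 FPKM in atbmi1abc and 0.475 and 0.563 in atbmi1ab_strong, and was listed at 0 in WT. SKU5-similar genes, related to copper oxidases of the wall, had 3 members among 17 such loci.

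Peptide genes of the defensin, knottin, thionin and Stig1 families had 7 members (3.24%, against 0.676%). LCR67, a defensin-like gene, had 162 and 108 FPKM in atbmi1abc, 24.0 and 41.0 in atbmi1ab_strong, 2.34 and 9.29 in atbmi1b, and 0 and 0.573 in WT. The neighbouring plant defensin genes PDF1.3 (15.3 and 27.9 FPKM in atbmi1abc, 1.13 and 0.682 in WT) and PDF1.2b (17.3 and 21.3 in atbmi1abc, 0 and 0 in WT) had atbmi1a as the next highest genotype; as close relatives they may share reads, so their single values are uncertain. Loci annotated as uncharacterized proteins made up 29 members (13.4%), close to their 12.9% of nuclear loci. AT5G14560, a 123-base locus of this kind, had 54.5 and 89.4 FPKM in atbmi1abc and was listed at 0 in all 8 others. At this length an FPKM value rests on fewer fragments than in a longer gene.

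Hormone enzymes were found among the members too. CYP707A2, which inactivates abscisic acid, had 19.8 and 15.2 FPKM in atbmi1abc, 4.61 and 4.12 in atbmi1ab_strong, and 2.06 and 2.17 in WT. GA20OX1, an enzyme of gibberellin synthesis, had 10.7 and 9.83 FPKM in atbmi1abc, 0.584 and 0.941 in atbmi1ab_strong, and 0.528 and 0.998 in WT. ACO1, an enzyme of the last step of ethylene synthesis, had 235 and 281 FPKM in atbmi1abc, 62.9 and 59.8 in atbmi1ab_strong, and 15.1 and 12.2 in WT. The GA20OX1 values of the double mutant lay among those of WT, and those of CYP707A2 and ACO1 lay above their WT values.

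Some further members with known roles were chosen after their values had been seen. VIN3, a PHD-finger partner of Polycomb repressive complex 2 in vernalization, had 7.89 and 9.14 FPKM in atbmi1abc and 1.02 and 1.42 in atbmi1ab_strong, and was listed at 0 in WT. ULT2, a relative of the trithorax-type factor ULTRAPETALA1, had 37.1 and 46.3 FPKM in atbmi1abc, 6.27 and 4.63 in atbmi1ab_strong, and 0.216 and 0.109 in WT. SDT, which makes spermidine conjugates in seeds, had 49.5 and 92.8 FPKM in atbmi1abc and 14.4 and 17.8 in atbmi1ab_strong, and PRF5, a pollen profilin gene, had 60.4 and 79.7 in atbmi1abc and 5.97 and 6.07 in atbmi1ab_strong; both were listed at 0 in WT. In all 4 the double mutant lay between atbmi1abc and WT. GAMT2, a gibberellin methyltransferase gene, had 12.8 and 11.9 FPKM in atbmi1abc, against 0.463 and 0.350 in WT.

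Differences among the genotypes other than atbmi1abc did not choose the members, apart from the ceiling that the rule set on all of them, and were tested. In atbmi1ab_strong against WT 156 of 217 members rose (71.9%), while 31.8% of all 19460 tested loci rose. A single member fell (0.461%, against 32.6% of tested loci). The median log2 fold change was 0.99 over the members and 0.00 over all tested loci. With quantile normalization 114 members rose and 7 fell, beside 5831 and 6994 of all tested loci. The member median was then 0.61, and with a pseudocount of 0.1 it was 2.06. The rule kept most members low in WT (150 had a WT mean under 1 FPKM), where a fall could hardly be seen, and only 106 of the 217 would have passed the filter of 1 FPKM over the 8 other libraries, so these counts describe the members and do not set them apart from other loci. Of the 160 members above 0 in WT 112 rose, with a median of 0.92. Without the atbmi1abc libraries in the filter and fit, 76 of 106 tested members rose and 1 fell, beside 6021 and 6310 of 19345 loci. All fold changes were computed on log2(FPKM + 1), so those of low genes are understated. Separate growth of the paired libraries is not documented, and the p-values reflect library-to-library spread that may be technical.

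AT5G38160 had the highest log2 fold change of a called member in atbmi1ab_strong against WT, at 6.42 ± 1.00 (SE; limma adjusted p = 0.000753). Each SE takes in the spread within all 5 genotypes, and the 2 atbmi1a libraries of AT5G38160 lay far apart. The GDSL lipase gene AT5G03820 followed at 5.29 ± 0.64 (adjusted p = 0.000191), LEA7 at 5.01 ± 0.49 (5.53e-05), GRP19 at 4.77 ± 0.70 (0.000557) and LCR67 at 4.69 ± 0.59 (0.000232). AT5G19580, a glyoxal oxidase-related gene, was the member that fell, at -0.63 ± 0.19 (adjusted p = 0.0181), with 0.925 and 1.46 FPKM in atbmi1ab_strong against 2.18 and 2.54 in WT and 9.19 and 12.8 in atbmi1abc. Its call was lost without atbmi1ab_strong replicate 1 (adjusted p = 0.113) or WT replicate 2 (0.0914).

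Several of the regulators rose in the double mutant. BBM rose by 2.80 ± 0.26 (limma adjusted p = 4.55e-05), LBD15 by 2.27 ± 0.26 (0.000127) and ICE1 by 0.84 ± 0.12 (0.000436). LEC1, SEP2 and MYB62 averaged under 1 FPKM over the 8 other libraries and passed the filter through atbmi1abc, so their values above are given without a test. AT4G30880, the lipid-transfer gene with a 54.6-fold higher atbmi1abc level than atbmi1ab_strong level, rose by 4.42 ± 1.16 (limma adjusted p = 0.0107). This call was lost without atbmi1ab_strong replicate 1. Its SE takes in the spread within all 5 genotypes, and for this gene the 2 atbmi1a libraries lay far apart. Of the 24 members counted as transcription factors 19 rose, as did 6 of the 9 isoprenoid genes, all 5 lipid-transfer genes, 6 of the 7 pectin genes, 4 of the 7 peptide genes, 16 of the 29 uncharacterized loci, 2 of the 4 UDP-glycosyltransferase genes and 1 of the 3 2-oxoglutarate oxygenase genes. These counts include members that passed the filter only through atbmi1abc, SEP2 among them. They describe the members and do not set a family apart from other loci. Of all members 71.9% rose, and of tested loci 31.8%, and differences between the families were not tested. AT5G19580 belongs to none of these groups.

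**Figure D4:**
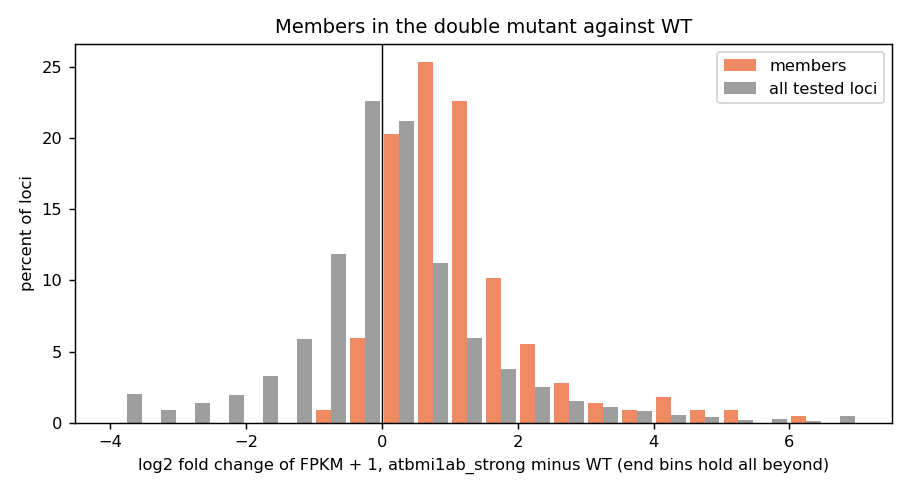
Percent of the 217 members and of the 19460 tested loci in bins of the log2 fold change of FPKM + 1 in atbmi1ab_strong minus WT, with each end bin holding all values beyond it. Members lie mostly to the right of 0 with a median of 0.99, and all tested loci are centred near 0.00.

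Fewer members were called in the single mutants. In the libraries labelled atbmi1a 21 of 217 members rose (9.68%, against 17% of tested loci) and 4 fell (1.84%, against 18.4%), with a median log2 fold change of 0.22 over the members and 0.02 over all tested loci. The count rested on single libraries: without atbmi1a replicate 1 it was 10 with a median of 0.00, without atbmi1a replicate 2 it was 57 with a median of 0.41, and it was 7 and 10 without WT replicate 1 and WT replicate 2. With quantile normalization 13 rose and 10 fell, beside 3158 and 3752 of all tested loci, with a median of 0.01 over the members. In atbmi1b 18 members rose (8.29%, against 21.3%) and 8 fell (3.69%, against 24.1%), with a median of 0.02 over the members and -0.01 over all tested loci. Without WT replicate 1 the atbmi1b counts were 8 and 2. The mean was under 1 FPKM for 124 members in atbmi1a, 138 in atbmi1b and 150 in WT, where a change could hardly be called. Without the atbmi1abc libraries in the filter and fit, 106 members and 19345 loci were tested. Then 16 members rose and 4 fell in atbmi1a, beside 3244 and 3477 of these loci. In atbmi1b 14 members rose and 7 fell, beside 4131 and 4613. The shares over all 217 members do not set them apart from other loci.

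LEA7 rose by 2.26 ± 0.49 in the libraries labelled atbmi1a (limma adjusted p = 0.0106), which failed the threshold with WT replicate 1 removed (0.0646). AT5G41765, annotated as related to the storekeeper DNA-binding protein, rose as well (adjusted p = 0.00402), with 1.19 and 1.10 FPKM in atbmi1a, while it was listed at 0 in both WT libraries. AT3G16300 rose by 1.51 ± 0.49 (adjusted p = 0.0472), and its call was lost without any single library other than atbmi1a replicate 2, with adjusted p up to 0.203. SBP3, a selenium-binding protein gene, fell by 0.87 on the log2 scale in atbmi1a and by 0.74 in atbmi1b (adjusted p = 0.0300 and 0.0426), with 188 and 159 FPKM in atbmi1abc, 10.5 and 5.30 in atbmi1a, 8.80 and 7.85 in atbmi1b, and 15.2 and 14.1 in WT. CYP707A2 fell by 0.76 and the receptor-like protein gene RLP29 by 0.67 in atbmi1a (adjusted p = 0.0221 and 0.0155). Without WT replicate 1 these 4 calls were lost (adjusted p of 0.0769 to 0.153). They were also lost without WT replicate 2 for CYP707A2 and SBP3, without atbmi1a replicate 1 for CYP707A2 and RLP29, and without atbmi1a replicate 2 or either atbmi1b library for SBP3 in atbmi1a. The call of SBP3 in atbmi1b was lost without any single library other than those of atbmi1a.

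In atbmi1b the carboxylesterase gene CXE13 rose by 2.13 ± 0.30 (limma adjusted p = 0.00107) and the MATE transporter gene DTX1 by 1.87 ± 0.28 (0.00133). CXE13 had 75.3 and 63.5 FPKM in atbmi1abc, 12.3 and 16.6 in atbmi1b, and 2.01 and 3.07 in WT, so atbmi1b was its next highest genotype. LCR67 rose by 2.23 ± 0.59 (adjusted p = 0.0171), a call that was lost without atbmi1b replicate 2 (0.101) or WT replicate 1 (0.0979). ACO1 fell by 1.08 on the log2 scale (adjusted p = 0.0211; 0.0549 to 0.111 when any 1 of the 4 libraries compared was left out), and AT2G14900 fell by 0.91 (adjusted p = 0.00419). ACO1 and AT2G14900 thus stood below WT in atbmi1b and above WT in atbmi1ab_strong, where AT2G14900 rose by 1.28 ± 0.18 (adjusted p = 0.000369).

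The libraries labelled atbmi1a differed from each other over the members. In 177 members (81.6%) replicate 1 was higher than replicate 2 and in 23 lower, while replicate 1 was higher in 58.1% of all tested loci. In 55 members replicate 1 was above 0 and replicate 2 was listed at 0, and in 1 member the reverse held. AT4G30880 had 30.3 FPKM in replicate 1 and 0.386 in replicate 2, and AT5G38160 had 13.4 and 0. The summed level of the seed storage and oil body list was 41.4 FPKM in the lower and 2172 in the higher of these libraries. The part of this library in the atbmi1a values of the members was not tested beyond leaving it out.

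The member promoters were then searched for 6 motifs on both strands in the 250 bases before the annotated start, for 216 members and for 26176 nuclear loci. The RY core CATGCA was found in 63 member promoters (29.2%, 95% Wilson interval 23.5% to 35.6%) and in 2236 of all promoters (8.54%). The full repeat CATGCATG, each of which also counts as a core, was found in 12 (5.56%) and in 210 (0.802%). For the other motifs the shares of members and of all promoters lay closer together: the G-box CACGTG in 7.41% and 6.53%, the core ACGTG of the abscisic acid response element, which every G-box also contains, in 25.5% and 23.1%, the telo-box AAACCCTA in 4.63% and 4.45%, and GAGAGA in 24.5% and 20.3%. A match is a description of the letters in the window and not of binding.

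Member promoters held the RY core mostly between 51 and 150 bases before the start. In the bin from 51 to 100 bases 10.2% of members and 1.91% of all promoters had a match, and from 101 to 150 bases 9.26% and 1.99%. Beyond 250 bases the share per bin was 1.85% to 4.63% in members and 1.94% to 2.30% in all promoters.

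**Figure D5:**
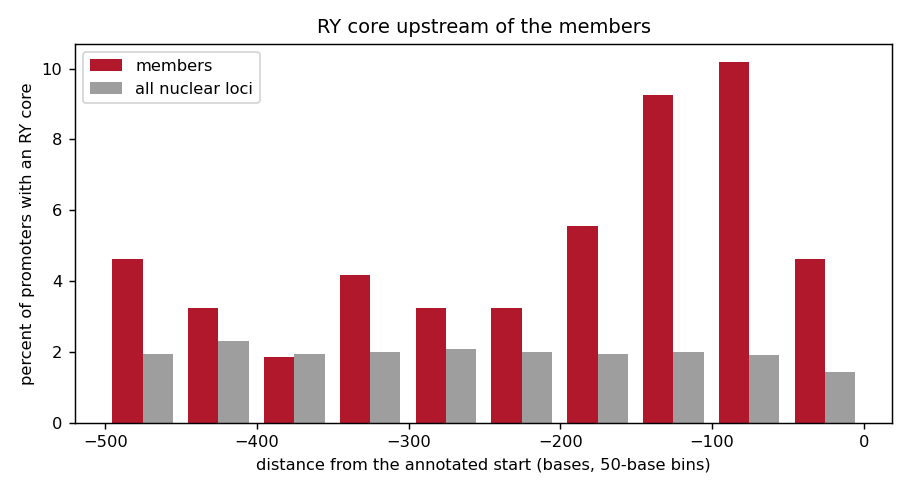
Percent of promoters with the RY core CATGCA on either strand, by distance from the annotated start in bins of 50 bases, for 216 members and 26176 nuclear loci. Members are at 10.2% and 9.26% in the bins from 51 to 150 bases, and all nuclear loci are near 2% in most bins (1.42% to 2.30%).

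By level of the members, the share was 27.5% for members at or above the median atbmi1abc level and 30.8% below it. All 5 lipid-transfer members had the core, against 16.5% of the 133 annotated lipid-transfer loci. Of these 5, AT5G38160, AT5G38170 and AT5G38180 form a run of neighbours and may not count as separate cases. The core was also in 9 of the 24 members counted as transcription factors (37.5%, against 10.5% of all annotated factors). Among these 9 were BBX10, ICE1, MYB11 and BLH8. LEC1, ABI4, BBM, SEP2 and LEA7 had no match in this window. Loci that peaked in atbmi1ab_strong by the same limits had the core in 21 of 210 promoters (10.0%). Loci outside the members called higher by more than 2 on the log2 scale had it in 18.5% of 1421 promoters for atbmi1abc against WT. For atbmi1ab_strong against WT the share was 17% of 1496, and over all tested loci it was 8.24% of 19086. At any fold change 36.3% of all tested loci were called higher in atbmi1abc against WT. Members with the core rose in atbmi1ab_strong against WT in 51 of 63 cases (81.0%), and members without it in 105 of 153 (68.6%). The difference between these shares was not tested. Only 106 members averaged 1 FPKM or more over the 8 other libraries, and the rule kept most members low in WT. Both shares include members that passed the filter only through atbmi1abc. They therefore describe the members and do not set them apart from all tested loci, of which 31.8% rose.

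Members also lay beside each other in the genome. Of 216 placed members 26 (12%) had another member as direct neighbour, while 427 of 26177 loci (1.63%) had a member as neighbour. They formed 12 runs, of which 2 held 3 loci: the lipid-transfer genes AT5G38160 to AT5G38180 and the X8-domain genes AT5G63230 to AT5G63250. Other runs joined genes of 1 family, such as the GDSL lipase genes AT5G03810 and AT5G03820, the TRAF-like genes AT3G58400 and AT3G58410 and the defensin genes PDF1.3 and PDF1.2b. Some joined unlike genes, such as the receptor-like kinase gene AT3G24240 (62.2 and 53.4 FPKM in atbmi1abc, 5.45 and 7.84 in WT) and the glycine-rich protein gene AT3G24250 (88.8 and 121 in atbmi1abc, 0.138 and 0 in WT). AT4G09940, a P-loop nucleoside triphosphate hydrolase gene, had 27.1 and 25.5 FPKM in atbmi1abc, 0.852 and 1.10 in atbmi1ab_strong, and 0.0723 and 0.0728 in WT, and lies beside the AIG1 family gene AT4G09930. Without the members in runs the share of promoters with the RY core was 26.8%. Members had a median transcript length of 1357 bases against 1541 over nuclear loci, and 23.1% had a single exon, against 19.1%.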

How the data were processed

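Seedling RNA, isolated with a Qiagen kit, was made into Illumina libraries, per the labels' protocols. The deposited values are FPKM, which the authors made with TopHat, Cufflinks and Cuffdiff on build TAIR10, per the submitters' processing notes; no versions, options or scaling between libraries are stated there. The geometric mean of FPKM over loci above 1 in all libraries was 17.0 to 17.9. An exact 0 can be a failed estimate and is given as listed at 0. Reads of overlapping or near-identical genes may enter a locus. Depth in reads is not stated, and only relative depth was read from the values.

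From these values the members were taken by the rule in the text. Log2(FPKM + 1) of the 19460 loci averaging 1 FPKM or more was fitted with limma 3.58.1 (eBayes with trend, R 4.3.3), 1 coefficient per genotype over all 10 libraries, and p-values were Benjamini-Hochberg adjusted over all loci and called under 0.05. Members were not tested in comparisons with atbmi1abc, whose calls served only to pick other loci for the motif count. Promoters, positions and names came from RefSeq TAIR10.1, which matched 216 members; motifs were counted in the 250 bases upstream. Named members were the 12 highest by ratio, the 8 highest by level, members of 9 gene lists with 132 genes, transcription factors, the extreme calls, families and runs of neighbours, and the 3 nearest the limit. The rule, members, lists and tests were chosen with earlier results of these data known, and families and shown promoters after the members were seen. Alternatives were other rule limits, pseudocounts, filters, scalings, sets of libraries and the replicate block. Figures were drawn with matplotlib 3.10.9 in Python 3.11.15.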

Additional observations from a re-analysis of the deposited data

How the results depend on the processing

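Of 179 alternative values for the counts, medians and RY core share, 149 stayed within their limits. Limits were 1.5-fold for counts, the SD of the member median between libraries for medians, and the Wilson interval for the share. For atbmi1a this SD was 0.437, around a median of 0.22. Some values could not move, so the 149 is no measure of stability. Holds of 0.1 and 1 FPKM could not change the members, and leaving out 1 library outside a comparison leaves its median unchanged. A 6-fold limit left 127 members. For atbmi1ab_strong against WT the median of 0.99 became 2.06 with a pseudocount of 0.1 and 0.76 with the single mutants as reference. It was 1.16 without the atbmi1abc libraries, where 76 of 106 tested members rose, beside 6021 of 19345 loci. With quantile normalization it was 0.61, and 114 members rose and 7 fell, beside 5831 and 6994 of 19460 loci. Leaving out 1 library at a time gave a median of 0.87 to 1.03. Fewer members were called as risen without any 1 library of atbmi1ab_strong or WT than with all libraries. For atbmi1a the counts became 5 higher and 1 lower with only the 4 libraries compared and 13 and 10 with quantile normalization, and 7 to 57 and 0 to 6 leaving out 1 library at a time. For atbmi1b leaving out 1 library gave 8 to 26 higher and 2 to 8 lower, and the median of 0.02 became 0.0618 with a pseudocount of 0.1, 0.0692 without the atbmi1abc libraries and -0.0329 with quantile normalization. The RY core share was 40.3% in 500 bases and 15.3% in the farther 250 of these, windows added after the data were seen, against 17.1% and 9.54% of all promoters. The cause of these shifts was not tested. Same-numbered libraries did not deviate together (correlations of -0.23 to 0.12 over 10 pairs of genotypes), and with the replicate block 151 members rose and 1 fell in atbmi1ab_strong, 16 and 4 in atbmi1a, and 15 and 8 in atbmi1b. Of 402 alternative values for 23 single tests, 352 kept their call, 50 lost it and none turned direction. With 2 libraries per genotype and no read counts, differences of members under about 1 FPKM rest on few fragments.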
